A study of Homo sapiens with 5 samples.

Results

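HIF1α control-only regions are the stretches of the BEAS-2B genome where HIF1α was called in untreated cells and nowhere else in the series. They were chosen by the peak calls themselves. A merged region was a member when it overlapped, by at least 1 bp, an interval of the HIF1α control library and no interval of HIF1α with iAs, of Nrf2 in control cells or of Nrf2 with iAs. This rule found 1606 of 21088 merged regions (7.62%). They make up 27.2% of the 5908 regions with a HIF1α control interval. Since the calls chose them, the absence of a HIF1α peak with iAs is the definition of these regions and not a result. Of the 2755 regions with HIF1α in control cells and without HIF1α after iAs, the members are the 1606 that also had no Nrf2 peak.

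BEAS-2B is an immortalized line made from human bronchial epithelium. All cells were starved of serum overnight and then received either no arsenic (control) or inorganic arsenic (iAs) at 1 μM for 6 h. HIF1α and Nrf2 were each immunoprecipitated in both conditions, which gave 4 ChIP libraries with 1 library per group. The labels name the Abcam antibody ab2185 for HIF1α and the Santa Cruz antibody sc-13032 for Nrf2, whereas the study's methods name Active Motif antibodies. An input library was sequenced as well and was not used here. With 1 library per group there is no replicate check. Every p-value below compares regions of these libraries with each other, not conditions across cultures, and neighbouring regions are not independent.

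HIF1α is the oxygen-regulated subunit of hypoxia-inducible factor 1. It pairs with ARNT and binds hypoxia response elements (HREs), whose core reads ACGTG or GCGTG. AP-1 (FOS and JUN proteins), TEAD (the DNA-binding partners of YAP and TAZ) and RUNX factors occupy many distal enhancers of epithelial cells, while ETS and SP/KLF factors bind promoters rich in CpG. Nrf2 binds the antioxidant response element (ARE), which contains the AP-1 letters TGACTCA.

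To show the kind of DNA in these regions, 6 members are printed whole, on the plus strand of hg19. They come from a pool of 880 members of at most 300 bp, outside exons and UTRs and on all chromosomes but 1. Within that pool they are the widest with each of 3 elements within 100 bp of the centre, 2 members per element. Capitals mark every match, on either strand, to the HRE core ACGTG, the AP-1 element TGACTCA, its extension TGACTCAGC (the ARE form) and the TEAD element GGAATG. The first pair was taken for ACGTG. One lies in an intron of ITGB8 (integrin β8) and the other in an intron of FNDC3B, a protein with fibronectin type III domains.
ITGB8, chr7:20447521-20447815: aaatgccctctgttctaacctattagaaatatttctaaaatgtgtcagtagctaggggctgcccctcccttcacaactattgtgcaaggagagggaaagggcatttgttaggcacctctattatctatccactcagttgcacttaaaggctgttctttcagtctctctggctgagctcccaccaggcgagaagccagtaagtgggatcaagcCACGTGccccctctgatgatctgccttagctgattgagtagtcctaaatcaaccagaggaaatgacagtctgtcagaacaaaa
FNDC3B, chr3:171871122-171871415: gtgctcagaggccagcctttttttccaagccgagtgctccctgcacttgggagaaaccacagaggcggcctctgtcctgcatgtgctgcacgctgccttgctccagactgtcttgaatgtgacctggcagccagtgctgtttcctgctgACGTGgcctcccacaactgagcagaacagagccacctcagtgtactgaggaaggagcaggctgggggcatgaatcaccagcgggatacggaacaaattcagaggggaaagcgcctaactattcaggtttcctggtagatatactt
In ITGB8 both matches lie in the palindrome CACGTG, read once on each strand. Neither region holds TGACTCA or GGAATG. The second pair was taken for TGACTCA. Both are intergenic, at 15.9 kb from the start of SERPINB1, an inhibitor of neutrophil proteases, and at 18.1 kb from the start of NLRP12, a member of the NLR family.
SERPINB1, chr6:2857802-2858100: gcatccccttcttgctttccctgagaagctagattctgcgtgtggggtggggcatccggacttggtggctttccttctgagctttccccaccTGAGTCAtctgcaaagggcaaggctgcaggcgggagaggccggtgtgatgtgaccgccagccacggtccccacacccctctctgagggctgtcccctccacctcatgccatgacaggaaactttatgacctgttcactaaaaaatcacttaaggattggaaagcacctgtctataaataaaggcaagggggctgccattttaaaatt
NLRP12, chr19:54345524-54345819: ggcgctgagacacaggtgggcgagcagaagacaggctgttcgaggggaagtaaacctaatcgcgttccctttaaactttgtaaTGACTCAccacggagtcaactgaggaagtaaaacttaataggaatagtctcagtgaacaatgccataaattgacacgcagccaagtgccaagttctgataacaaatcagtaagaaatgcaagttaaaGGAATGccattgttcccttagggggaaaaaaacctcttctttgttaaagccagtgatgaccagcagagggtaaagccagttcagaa
The NLRP12 region has a TEAD match as well as an AP-1 match. The region beside SERPINB1 lies 43 bp from a HIF1α peak with iAs. The third pair was taken for TGACTCAGC, which 4 regions of this pool held near the centre.
CLIP2, chr7:73721266-73721537: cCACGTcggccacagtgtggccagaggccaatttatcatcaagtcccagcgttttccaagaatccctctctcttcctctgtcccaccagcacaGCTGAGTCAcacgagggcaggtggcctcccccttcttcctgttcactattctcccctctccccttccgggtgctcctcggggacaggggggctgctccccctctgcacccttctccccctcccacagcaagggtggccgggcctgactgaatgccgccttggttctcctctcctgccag
TMEM205, chr19:11455190-11455422: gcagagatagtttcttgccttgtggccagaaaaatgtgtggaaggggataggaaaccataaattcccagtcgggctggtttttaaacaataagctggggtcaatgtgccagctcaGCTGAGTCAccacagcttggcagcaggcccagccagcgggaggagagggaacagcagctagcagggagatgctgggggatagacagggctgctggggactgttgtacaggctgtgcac
The CLIP2 region sits in an intron and also carries ACGTG, read on the minus strand, near its left end. The region near TMEM205 is classed as promoter of another transcript and lies 1.64 kb from the canonical start of TMEM205.

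Each of the 1606 members was 1 HIF1α control interval with the same start and end. The intervals were 190 to 965 bp wide, with a median of 237 bp and quartiles of 207 and 290 bp. The HIF1α control intervals in regions that kept HIF1α with iAs and had no Nrf2 (2418 regions) had a median of 301 bp, and those in regions with an Nrf2 peak after iAs in place of HIF1α (604 regions) had a median of 265 bp. An interval of at most 200 bp was found in 19.1% of the members and in 9.72% of the kept regions. The lists carry no peak height and the read depth is not known, so how far a member fell below the threshold of the peak caller in the other libraries was not measured. Widths are given as description, since the same calls chose the members. Median widths were alike across locations, at 239 bp for promoters, 235 bp for introns and 239 bp for distal intergenic members.

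At the edge of the rule, a member on chr20:25176017-25176206 touched the next peak of another library without sharing a base. Members on chr17:48105611-48105944 and chr15:39488426-39488627 lay 2 bp and 3 bp from one. Just outside the rule, HIF1α control intervals in the regions chr16:70748886-70749376, chr21:38444937-38445451 and chr6:108883100-108884136 shared 3, 9 and 10 bp with a peak of another library and were therefore left out. In all, 263 members lay within 1 kb of a peak of another library. The other 1343 had none that close.

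Most members lay away from genes' starts. Their centres fell in distal intergenic DNA in 598 regions (37.2%, 95% confidence interval 34.9 to 39.6%) and in introns in 515 regions (32.1%, 29.8 to 34.4%). Promoters, taken as 3 kb upstream of a start site, held 407 (25.3%, 23.3 to 27.5%). The 5'-UTRs held 48, exons 26 and 3'-UTRs 12. Of the 598 intergenic members, 64 were within 1 kb of the start of a gene of another type, such as a non-coding RNA.

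Location was not used by the rule, and it differed from that of the HIF1α regions that were kept. Among the 2418 kept regions, 61.2% were in promoters and 8.23% in distal intergenic DNA. The members had 29.0 percentage points more distal intergenic regions (26.4 to 31.6, adjusted p = 5.8e-112 by Fisher's exact test, given below as exact adjusted p) and 35.9 points fewer in promoters (difference -35.9, -38.7 to -33.0, exact adjusted p = 3.6e-113). Introns were also more frequent, by 21.7 points (19.2 to 24.3, exact adjusted p = 1.5e-64). Exons and 5'-UTRs were less frequent, with differences of -5.41 points (-6.61 to -4.20, exact adjusted p = 1.7e-16) and -9.96 points (-11.5 to -8.36, exact adjusted p = 2.1e-30).

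Against the 9191 regions with HIF1α after iAs only, the members again held more distal intergenic regions, 37.2% against 9.08% (28.2 points, 25.7 to 30.6, exact adjusted p = 5.7e-161). Their share in exons was 1.62% against 12.5% (difference -10.9 points, -11.7 to -9.87, exact adjusted p = 2.0e-52). The intron share was 6.83 points higher in the members (4.41 to 9.31, exact adjusted p = 2.7e-08), a difference of 0.103 points (-2.34 to 2.61) when 1 canonical transcript per gene was used. The 604 regions with an Nrf2 peak after iAs in place of HIF1α were still farther from genes, with 53.3% distal intergenic and 4.80% promoter regions. The members had 16.1 points fewer distal intergenic regions than these (difference -16.1, -20.7 to -11.4, exact adjusted p = 1.8e-11) and 20.5 points more promoters (17.7 to 23.2, exact adjusted p = 1.7e-32). The rule separates the members from these regions by Nrf2 peaks. Differences from these regions, here and below, are therefore not independent of where Nrf2 peaks lie.

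**Figure D1:**
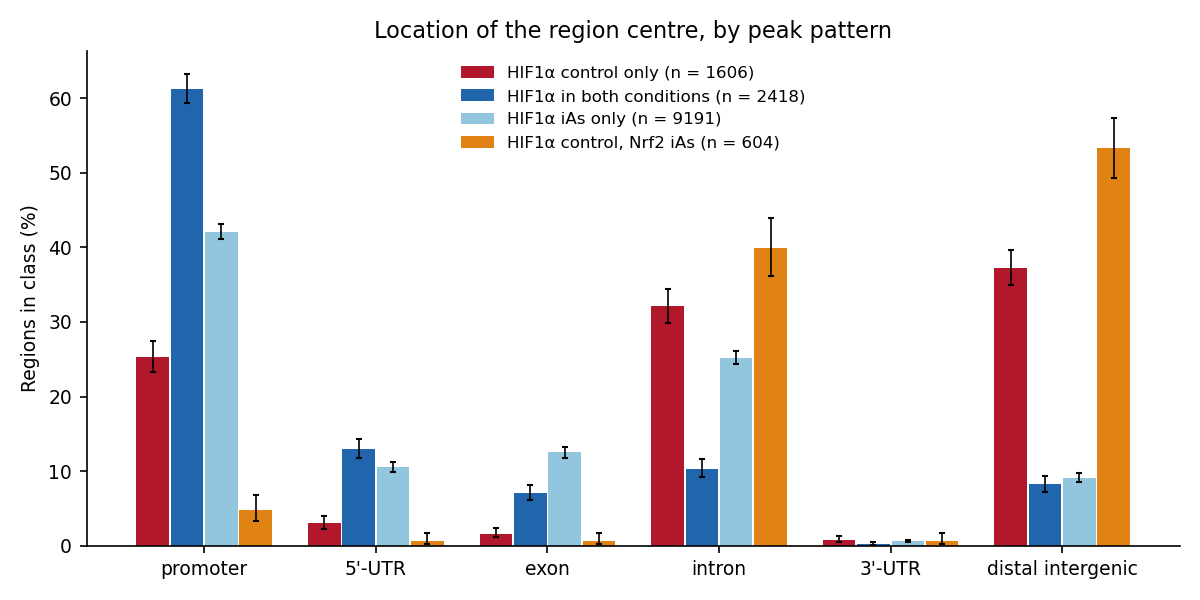
Share of region centres (%, vertical axis) in 6 location classes for HIF1α control-only regions and 3 other peak patterns; bars are shares and whiskers 95% Wilson intervals. The control-only regions stand at 37.2% in distal intergenic DNA and 25.3% in promoters, between the kept regions (8.23% and 61.2%) and the regions with an Nrf2 peak after iAs (53.3% and 4.80%).

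The distance to the nearest start site of a protein-coding gene varied over several orders of magnitude. Its median was 19429 bp, against 144 bp for the kept regions, 417 bp for the iAs-only regions and 43698 bp for the regions with an Nrf2 peak after iAs. Only 25.2% of the members were within 1 kb of a start, compared with 83.0% of the kept regions, and 60.1% were beyond 10 kb. Of the 404 members within 1 kb of a start, 260 were upstream and 144 downstream. For the description below, members in promoters, 5'-UTRs and exons are called proximal (481) and those in introns, 3'-UTRs and intergenic DNA distal (1125). This division was made after the locations had been seen. Promoters were taken upstream only, so distal includes introns just past a start, as at ERGIC2 (0.065 kb). Regions called distal were not matched between the sets for distance to a start.

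The gap from a member to the nearest HIF1α peak with iAs had a median of 38916 bp. Such a peak stood within 1 kb of 208 members (13%) and within 10 kb of 434 (27.0%), while 704 had none within 50 kb. Proximal members were closer, with a median gap of 15526 bp and 30.8% within 1 kb. Distal members had a median gap of 51031 bp and 5.33% within 1 kb. At 451 members no peak of any of the other 3 libraries was called within 50 kb. The rule used these peaks, so the gaps are description.

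**Figure D2:**
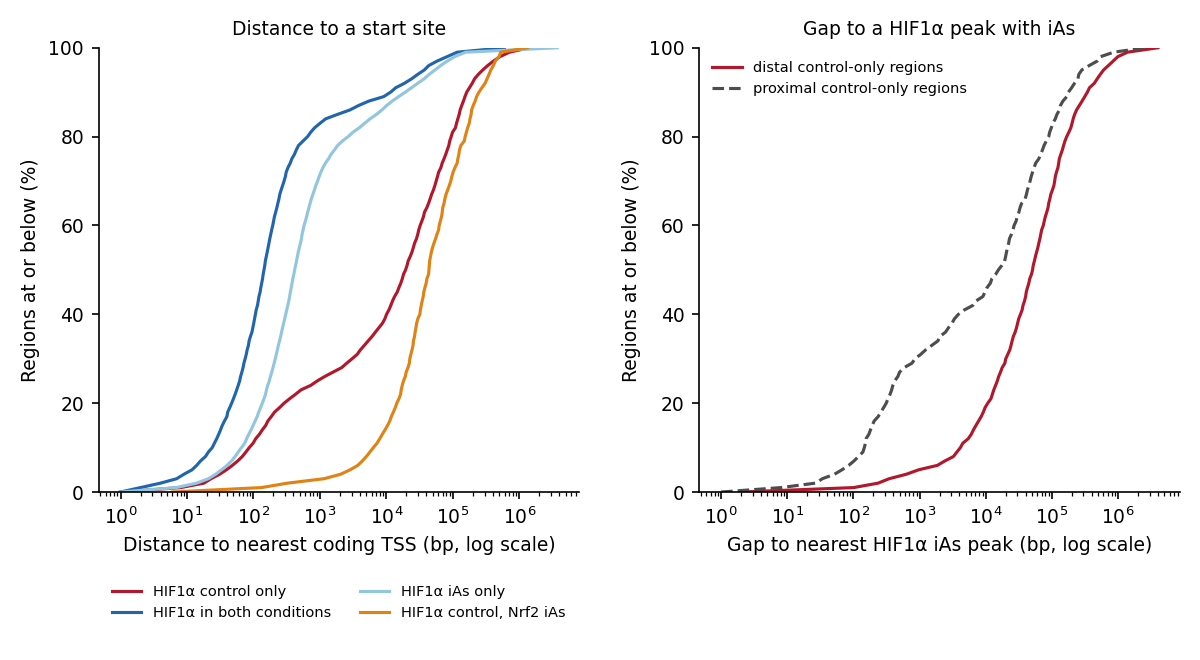
Cumulative share of regions (%, vertical axes) by distance to the nearest protein-coding start site for the 4 peak patterns (left) and, for proximal and distal control-only regions, by gap to the nearest HIF1α peak with iAs (right), both in bp on a log scale. The control-only curve has 25.2% of regions within 1 kb of a start and a median of 19429 bp.

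Members were found on all autosomes and on the X chromosome. They made up between 19.3% (chromosome 22) and 42.5% (chromosome 4) of the regions with a HIF1α control interval on a chromosome. They were mostly solitary: 119 had the centre of another member within 10 kb and 316 within 50 kb.

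The DNA of the members was of middling GC content. Within 100 bp of the centre it averaged 53.4% (SD 8.87 over 1606 regions), against 67.4% (SD 6.78) in the kept regions, 70.6% (SD 5.55) in the iAs-only regions and 49.2% (SD 7.30) in the regions with an Nrf2 peak after iAs. Windows like CpG islands, with at least 50% GC and an observed to expected CpG ratio of at least 0.6, made up 25.8% of the members (23.7 to 28.0%) and 90.5% of the kept regions (89.3 to 91.6%), a difference of -64.8 points (-67.1 to -62.2). Against the iAs-only regions the difference was -63.4 points (-65.6 to -61.1), and against the regions with an Nrf2 peak after iAs it was 22.3 points (19.6 to 24.8, exact adjusted p = 6.1e-40). The gap was present within both kinds of location described above. Among proximal regions, 64.9% of the members and 94.4% of the kept regions were island-like, and among distal regions 9.07% and 73.8%.

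AP-1 and TEAD elements were more frequent in the members than in the kept and the iAs-only regions, and less frequent than in the regions with an Nrf2 peak after iAs. TGACTCA stood within 100 bp of the centre of 268 members (16.7%, 95% confidence interval 14.9 to 18.6%), as in 2 of the regions printed above for it. The same window moved by 5 kb held it in 2.86%, and all 21088 merged regions in 16.2%. In the kept regions it was 2.11%, which left a difference of 14.6 points (12.7 to 16.5, exact adjusted p = 6.6e-63). In the iAs-only regions it was 1.34% (difference 15.3 points, 13.6 to 17.3, exact adjusted p = 1.1e-132). Regions with an Nrf2 peak after iAs had it more often than the members, at 32.5% (difference -15.8 points, -20.0 to -11.7, exact adjusted p = 2.0e-14). The rule separates these sets by Nrf2 peaks, and the ARE contains TGACTCA, so this last difference is not independent of the rule.

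GGAATG, the TEAD element, was found in 397 members (24.7%, 22.7 to 26.9%), in 10.6% of the moved windows and in 12.6% of all merged regions. The kept regions had 6.70% and the iAs-only regions 5.22%. These differences were 18.0 points (15.7 to 20.4, exact adjusted p = 5.3e-57) and 19.5 points (17.4 to 21.7, exact adjusted p = 1.1e-113). The regions with an Nrf2 peak after iAs had 33.1%, above the members (difference -8.39, -12.8 to -4.16, exact adjusted p = 2.8e-04). That last difference was not past the threshold among distal regions alone (-5.24 points, -9.98 to -0.611, exact adjusted p = 0.063).

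TGTGGT, the core bound by RUNX factors, was in 17.6% of the members and in 5.83% of the kept regions (11.8 points, 9.74 to 13.9, exact adjusted p = 3.9e-31). Its share in the moved windows was 13.3%, so it stood less far above the surrounding DNA than AP-1 and TEAD. The AP-1 and TEAD elements were found together in 69 members. TEAD was present in 25.7% of the members with AP-1 and in 24.5% of those without.

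The HRE core ACGTG was present in 328 members (20.4%, 18.5 to 22.5%), against 8.97% of the moved windows and 16.8% of all merged regions. It was more frequent in the kept regions, at 25% (difference -4.56 points, -7.15 to -1.91, exact adjusted p = 0.0019). With windows centred on the HIF1α control interval, it was -8.40 points (-11.0 to -5.70, exact adjusted p = 5.9e-09). The difference was -1.48 points (-3.57 to 0.665, exact adjusted p = 0.29) when the window was 50 bp on each side, -14.1 points (-20.8 to -7.82, exact adjusted p = 3.2e-05) in windows that were not island-like, and -26.7 points (-29.6 to -23.8, exact adjusted p = 1.1e-64) over the whole regions, of which the kept ones are wider. The iAs-only regions had 18.1% (difference 2.31 points, 0.246 to 4.49, exact adjusted p = 0.056). This difference was 3.08 points with 50 bp on each side (exact adjusted p = 5.3e-04) and turned to -4.28 points over the whole regions (-6.54 to -1.92, exact adjusted p = 8.7e-04), so its direction depends on the window. Among distal regions it was 3.87 points (exact adjusted p = 0.0098) and in windows that were not island-like 5.82 points (exact adjusted p = 0.0010). The regions with an Nrf2 peak after iAs had 14.6% (difference 5.85 points, 2.27 to 9.15, exact adjusted p = 0.0031), a difference of 1.02 points (-3.09 to 4.92) over the whole regions. The other core, GCGTG, was in 24.3% of the members, 15.2% of the moved windows and 30.8% of all merged regions. The kept regions had 43.2% (difference -18.9 points, -21.7 to -16.0, exact adjusted p = 1.9e-34). Among windows that were not island-like, that difference was no longer past the threshold (exact adjusted p = 0.31). In all, 39.1% of the members had ACGTG or GCGTG, 37.1% had the AP-1 or the TEAD element, and 35.9% had none of the 4. These combined shares were not counted in the moved windows or in all merged regions.

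The GC-rich SP/KLF element GGGCGG was the sharpest contrast in the other direction. It occurred in 16.8% of the members, 53.1% of the kept regions (difference -36.3 points, -39.0 to -33.6, exact adjusted p = 1.2e-124) and 56.7% of the iAs-only regions (difference -39.9 points, -41.9 to -37.7, exact adjusted p = 5.7e-203). The ARE form TGACTCAGC was in 5 members (0.311%), the same number as in their moved windows, and in 2.15% of the regions with an Nrf2 peak after iAs (difference -1.84 points, -3.35 to -0.859, exact adjusted p = 2.4e-04). That difference was -0.744 points (exact adjusted p = 0.072) with 50 bp on each side. As for AP-1, the ARE difference is not independent of the rule, which separates these sets by Nrf2 peaks. Over the 23 motifs, 7 were more frequent and 7 less frequent in the members than in the kept regions, and 9 did not pass the threshold. The counts were 10, 3 and 10 against the iAs-only regions, and 6, 4 and 13 against the regions with an Nrf2 peak after iAs.

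Base composition and location moved with these differences. Among windows that were not island-like (1192 members and 229 kept regions), the members still had 12.9 points more AP-1 (8.0 to 16.8, exact adjusted p = 1.0e-05) and 12.5 points more TEAD (6.54 to 17.6, exact adjusted p = 2.9e-04). Among distal regions, AP-1 stood in 21.9% of 1125 members and in 5.07% of 454 kept regions (16.8 points, 13.4 to 19.8, exact adjusted p = 1.5e-17), and TEAD in 28.3% and 10.6% (17.7 points, 13.6 to 21.4, exact adjusted p = 1.4e-14). Among proximal regions, AP-1 was 3.15 points (1.49 to 5.44) and TEAD 10.6 points (7.38 to 14.3) above the kept regions. The proximal members stood closer to their own windows moved by 5 kb, with 4.57% against 3.74% for AP-1 and 16.4% against 11.2% for TEAD.

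**Figure D3:**
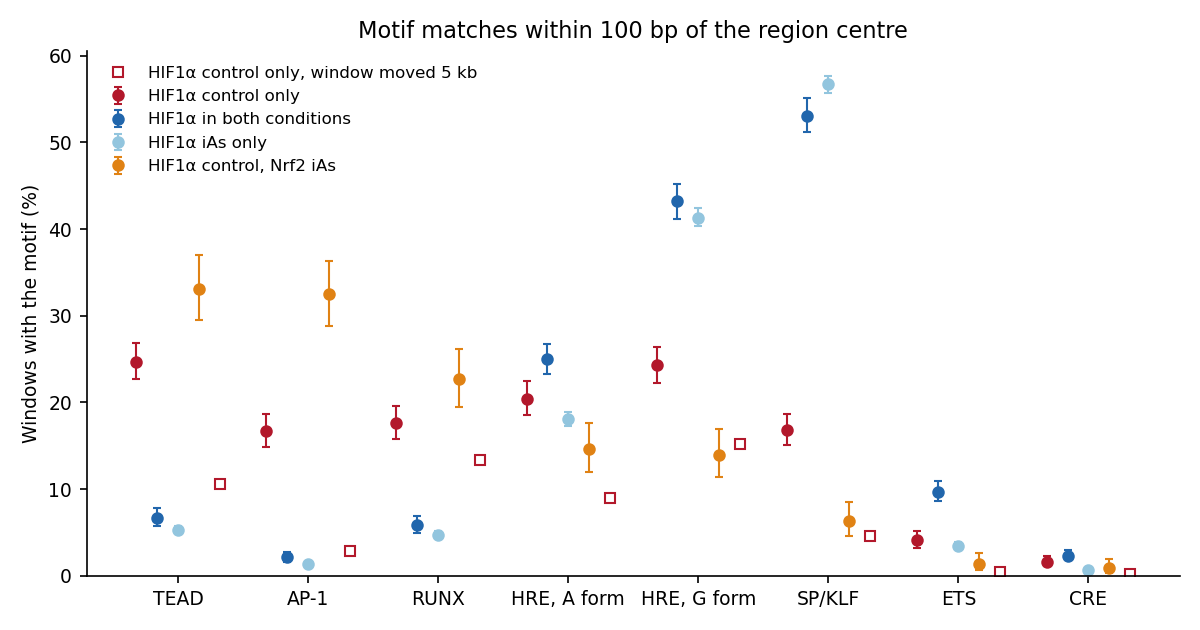
Share of regions (%, vertical axis) with each of 8 motifs within 100 bp of the centre, for HIF1α control-only regions and 3 other peak patterns; points are shares, whiskers 95% Wilson intervals, and open squares the control-only windows moved by 5 kb. The control-only regions have 24.7% TEAD and 16.7% AP-1, against 6.70% and 2.11% in the kept regions, and 16.8% SP/KLF against 53.1%.

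Proximal and distal members carried different elements. AP-1 was in 21.9% of the distal and 4.57% of the proximal members (17.3 points, 14.1 to 20.2, exact adjusted p = 1.2e-19, adjusted over the 23 motifs). TEAD was in 28.3% and 16.4% (11.8 points, 7.45 to 15.9, exact adjusted p = 1.1e-06) and RUNX in 21.3% and 8.94% (12.4 points, 8.71 to 15.7, exact adjusted p = 2.4e-09). The ETS element CGGAAGT went the other way, with 0.80% of the distal and 11.9% of the proximal members (difference -11.1 points, -14.3 to -8.36, exact adjusted p = 6.2e-21). The cAMP response element TGACGTCA, bound by CREB and ATF proteins, was in 0.533% and 3.95% (difference -3.42 points, -5.57 to -1.88, exact adjusted p = 7.3e-06). ACGTG was in 19.9% of the distal and 21.6% of the proximal members, with an interval of the difference from -6.20 to 2.51 points.

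Set against proximal kept regions, the proximal members had a close ETS share, 11.9% against 11.0% (difference 0.852 points, -2.12 to 4.30), and less GGGCGG, 31.0% against 54.8% (difference -23.8 points, -28.3 to -19.0, exact adjusted p = 1.8e-19). CCAAT, the NF-Y element, was 10.9 points higher in them (6.71 to 15.4, exact adjusted p = 1.3e-06). Its share was 28.1% in the proximal members, 23.3% in their windows moved by 5 kb and 17.2% in the proximal kept regions.

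In the distal members the elements gathered at the centre. AP-1 matches stood in 3.49% of the regions per 25-bp bin within 50 bp of the centre and in 0.461% beyond 300 bp, a ratio of 7.57. The ratio was 3.0 for TEAD, 2.52 for ACGTG and 1.85 for RUNX. In the proximal members the ratio was 8.0 for ETS, 1.87 for AP-1, 1.79 for ACGTG and 1.61 for TEAD.

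**Figure D4:**
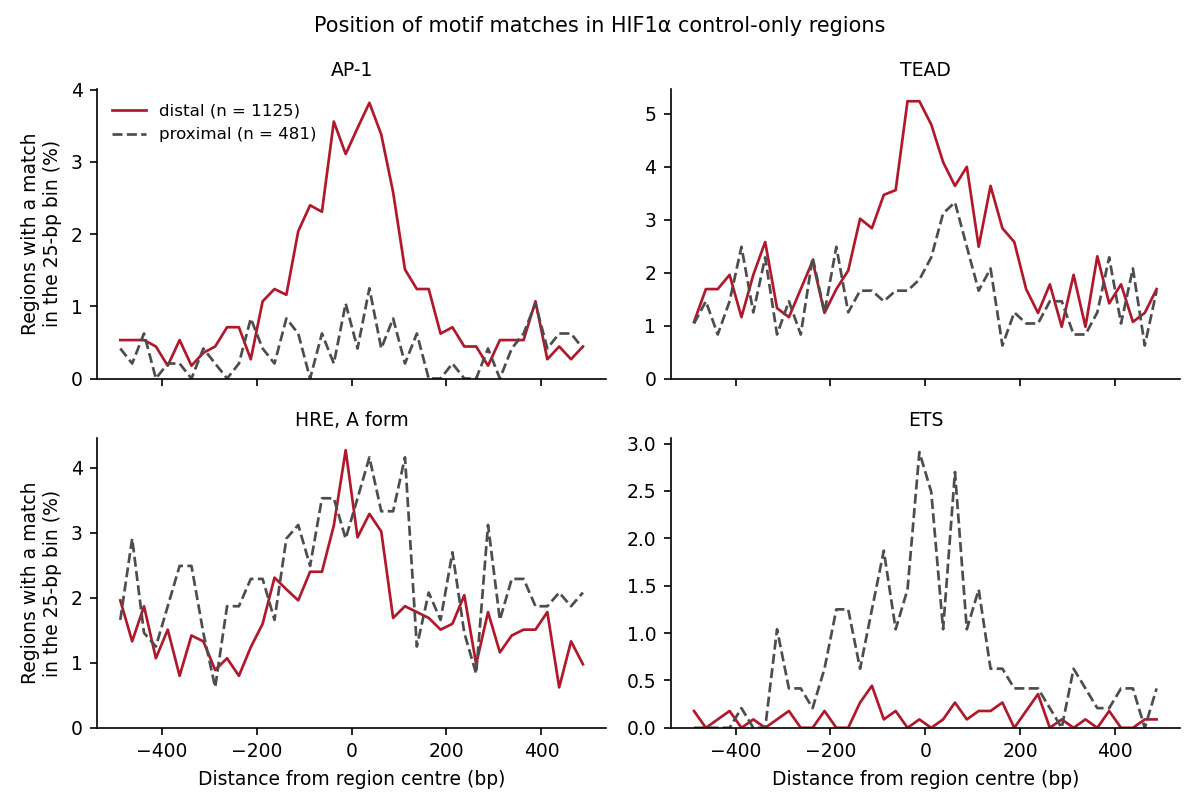
Share of control-only regions with a motif match (%, vertical axes) in bins of 25 bp against the distance from the region centre in bp, for 1125 distal (solid) and 481 proximal (dashed) regions. In distal regions AP-1, TEAD and the HRE core rise at the centre, AP-1 to 3.49% per bin within 50 bp against 0.461% beyond 300 bp, and in proximal regions ETS does.

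A search over all words of 6 letters, with no element fixed, gave CpG-rich words. Of the 1454 words present in at least 5% of the members, the one that stood highest above the moved windows was CGCGGA (5.29% against 0.436%), and all 10 leading words held CG. CCGGAA, which overlaps the ETS element, was among them with 11.5% against 1.62%. In the distal members alone, CCCGCA stood first (5.60% against 0.889%) and all 10 leading words again held CG. They included ACGTGC (8.27% against 1.87%) and CGTGAC (7.38% against 1.96%), both of which contain the letters of the HRE core or its last part. These ranks carry no test.

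A member lay in the body of, or within 10 kb of, 1597 of 20163 protein-coding genes (7.92%), and 73.4% of the members had such a gene. One member was found at 1453 of these genes, and 132 had 2. Near genes with a member other peaks were common. A HIF1α peak found with iAs only was present at 55.4% of them (42.2% of all protein-coding genes), any HIF1α peak with iAs at 68.2% (54.7% of all) and any Nrf2 peak with iAs at 34.3% (19.6% of all). No peak of the other 3 libraries was called at 391 of the 1597 genes (24.5%), against 40.5% of all protein-coding genes. Longer genes have more room for both, and the part of gene length was not tested.

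The lists of genes searched were fixed with earlier results of these data known. Their counts are read only beside the shares of all genes, 7.92% with a member and 54.7% with a HIF1α peak after iAs. Over the 371 genes in 15 lists, 40 had a member (10.8%). Targets of Nrf2 had none among 30, and the rule leaves out every region with an Nrf2 peak. Of these 30 genes, 25 had a HIF1α peak after iAs. Established targets of HIF had 3 of 30 (BNIP3L, EGLN1 and INSIG2), and 29 of the 30 had a HIF1α peak after iAs. Genes of YAP and TEAD had 7 of 20 (35.0%), the highest share of the lists, and genes of the cell cycle and stress response 5 of 23 (21.7%). These lists had a HIF1α peak after iAs at 18 of 20 and 22 of 23 genes.

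In glycolysis, 3 of 24 genes had a member and 21 had a HIF1α peak with iAs, beside 7.92% and 54.7% of all genes. HK1, which encodes a hexokinase, had a member of 200 bp at 2.33 kb upstream of its canonical start with an AP-1 and a TEAD match. HIF1α with iAs was called 1409 bp from it. The member at SLC16A3, the lactate exporter MCT4, was intronic at 12.6 kb from the start and held ACGTG. That gene had 4 HIF1α control intervals and 10 HIF1α intervals with iAs. The member assigned to ENO3, the muscle enolase, lay in the promoter of a neighbouring transcript, 31 bp from a HIF1α peak with iAs.

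Among regulators and targets of HIF, EGLN1, the prolyl hydroxylase that marks HIF1α for degradation, had an intronic member at 26.6 kb from its start (chr1:231531311-231531547) with a TEAD match and no HRE core. INSIG2, a sterol sensor protein, had one at 24.6 kb with a TEAD match, and BNIP3L, a mitophagy receptor, one at 68.3 kb with ACGTG and AP-1. AHR, the aryl hydrocarbon receptor, had 1 HIF1α control interval in its body or within 10 kb. This was a member of 216 bp, 58.8 kb upstream of the canonical start and inside a longer transcript. It held a RUNX match and neither HRE core. HIF1α with iAs was next called 58694 bp from it. The study shows HIF1α control peaks that were gone with iAs upstream and downstream of AHR and in the first intron of RHEB. No member was found at RHEB, the GTPase that activates mTORC1, and the reason was not examined. MTOR itself had a promoter member at 0.198 kb from its start with GCGTG and GGGCGG.

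Of the YAP and TEAD genes, ANKRD1, a target of YAP, had a member 8.36 kb upstream of its start and 2 HIF1α control intervals in all. It had no HIF1α interval with iAs, the nearest being 232928 bp from the member, and 1 Nrf2 interval in each condition. TGFB2, which encodes transforming growth factor β2, had an intronic member at 35.3 kb with 3 HIF1α control intervals and 2 with iAs. TEAD1 had one at 128 kb in an intron, LATS2, a kinase of the Hippo pathway, one 9.55 kb upstream and AMOTL1, a binding partner of YAP, one at 26.0 kb. THBS1, which encodes thrombospondin, had a promoter member 1.22 kb upstream, 352 bp from a HIF1α peak with iAs. CRIM1 had 2 intronic members.

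The TEAD element lay near the centre of the members at ANKRD1 and TGFB2. In the member at TEAD1 it lay at the left end, more than 100 bp from the centre. For these 3 genes, chosen after their values were seen, the element is shown in capitals in 30 bases of hg19 on the plus strand.
ANKRD1, chr10:92689151-92689180: cctagagccacaGGAATGctacagaataag
TGFB2, chr1:218553964-218553993: tgggatgccaagCATTCCagacctgttacc
TEAD1, chr11:12824126-12824155: cctgtgaatctgCATTCCctgtgccacttg
None of the members at TEAD1, LATS2, AMOTL1, THBS1 or CRIM1 held the TEAD or the AP-1 element within 100 bp of the centre. Over all members, 24.7% held the TEAD element in this window.

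Of these 5 genes of the cell cycle and stress response, 3 had members within 1 kb of the start. BTG1, an antiproliferative gene, had members of 392 and 196 bp in its 5'-UTR and promoter, 185 and 721 bp from a HIF1α peak with iAs. CDK4 had one at 0.167 kb upstream of its start with ACGTG and GGGCGG, and the stress-response gene SESN1 one at 0.719 kb. The members at PLK3 (AP-1) and CDK6 (TEAD and RUNX) lay at 6.95 kb and 138 kb from the canonical starts.

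Of 25 genes of oxidative phosphorylation and the TCA cycle, 4 had a member (16.0%, beside 7.92% of all genes), all within 1 kb of the start. MDH2, mitochondrial malate dehydrogenase, and SDHD, a subunit of succinate dehydrogenase, each had 1 HIF1α control interval and no HIF1α interval with iAs within 10 kb. The nearest lay 53359 and 60929 bp away, and both members held the ETS element. Members stood at 0.084 kb from the start of ATP5F1A and at 0.867 kb upstream of NDUFA1, the latter 621 bp from a HIF1α peak with iAs.

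A member was found at 4 of 31 adhesion genes (12.9%), 3 of 33 growth factor genes (9.09%) and 4 of 29 TGF-β and Wnt genes (13.8%). Genes of epithelial-mesenchymal transition and stemness had 2 of 28 (7.14%), and 7.92% of all genes had a member. EGFR had 1 at 55.1 kb in an intron with GCGTG, AP-1, RUNX and GGGCGG, beside 3 Nrf2 control intervals and 5 with iAs in the gene. ITGB3 and ITGB8, integrins β3 and β8, had 2 intronic members each, and ITGA3 had 1 in its promoter, 1959 bp from an Nrf2 peak with iAs. The ITGB8 region printed above and its neighbour of 217 bp lay about 77 kb into the gene, with the nearest HIF1α peak with iAs 76766 bp away. SMAD3, a transducer of TGF-β signals, had 2 intronic members among 7 HIF1α control intervals, and ID1, a target of BMP signals, had 2 on either side of the gene, 1 of 472 bp with AP-1. AXIN1, a scaffold of the β-catenin destruction complex, and NRG1, a ligand of ERBB receptors, had 1 each. CDH1, which encodes E-cadherin, had a member 4.82 kb upstream and 86476 bp from HIF1α with iAs.

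Of 24 immediate early genes 3 had a member (12.5%), and of 23 inflammatory genes 2 (8.70%), beside 7.92% of all genes. A HIF1α peak after iAs was present at 22 and 8 of these genes (91.7% and 34.8%), beside 54.7% of all genes. EGR2 and DUSP6 had members at 0.163 and 0.309 kb upstream, 779 and 469 bp from a HIF1α peak with iAs, and KLF6 had one in an exon. NFKB2, which encodes the NF-κB subunit p100, had a promoter member at 0.163 kb, and NFKBIZ had one at 21.8 kb with a TEAD match. Among airway genes, SCGB1A1, the club cell secretoglobin, was the sole one of 24 with a member (4.17%), 20.2 kb upstream with an AP-1 match. UAP1, an enzyme of the hexosamine pathway, had one at its promoter, 156 bp from a HIF1α peak with iAs.

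At 12 genes 3 or more members were found. BCL2L1, which encodes the survival protein BCL-XL, had 4 of its 8 HIF1α control intervals as members, all intronic, between 2.44 and 47.7 kb from the start. Of these, 2 held TEAD and 2 ACGTG. With iAs the gene had 3 HIF1α intervals, 2 near the start and 1 beyond its end, and 5 Nrf2 intervals. RERE, a nuclear receptor corepressor, PRKCE, protein kinase C epsilon, and HSF2BP had 4 members each, all but 1 of them intronic. Those of PRKCE were 285, 313, 422 and 513 kb from the start and 131744 to 311854 bp from HIF1α with iAs.

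MYLK, the myosin light chain kinase, had 3 HIF1α control intervals, all members, at 67.5, 94.4 and 133 kb into the gene. It had no HIF1α interval with iAs. ST8SIA1, a ganglioside sialyltransferase, had 3 with centres 51.4, 52.2 and 58.7 kb into the gene, also all of its HIF1α control intervals, and each held a TEAD match. Its one HIF1α interval with iAs lay at the start. CCN5, a secreted matricellular protein of the family that holds the YAP targets CCN1 and CCN2, had 3 members among 5 HIF1α control intervals, at 5.43, 5.88 and 13.7 kb, with a TEAD match in the first and an AP-1 match in the second. The other genes with 3 members were CBX5, HMGN4, RUSC2, SEPTIN9 and VAC14. At SEPTIN9, where 11 HIF1α intervals were called with iAs, all 3 members lay within 313 bp of one.

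**Figure D5:**
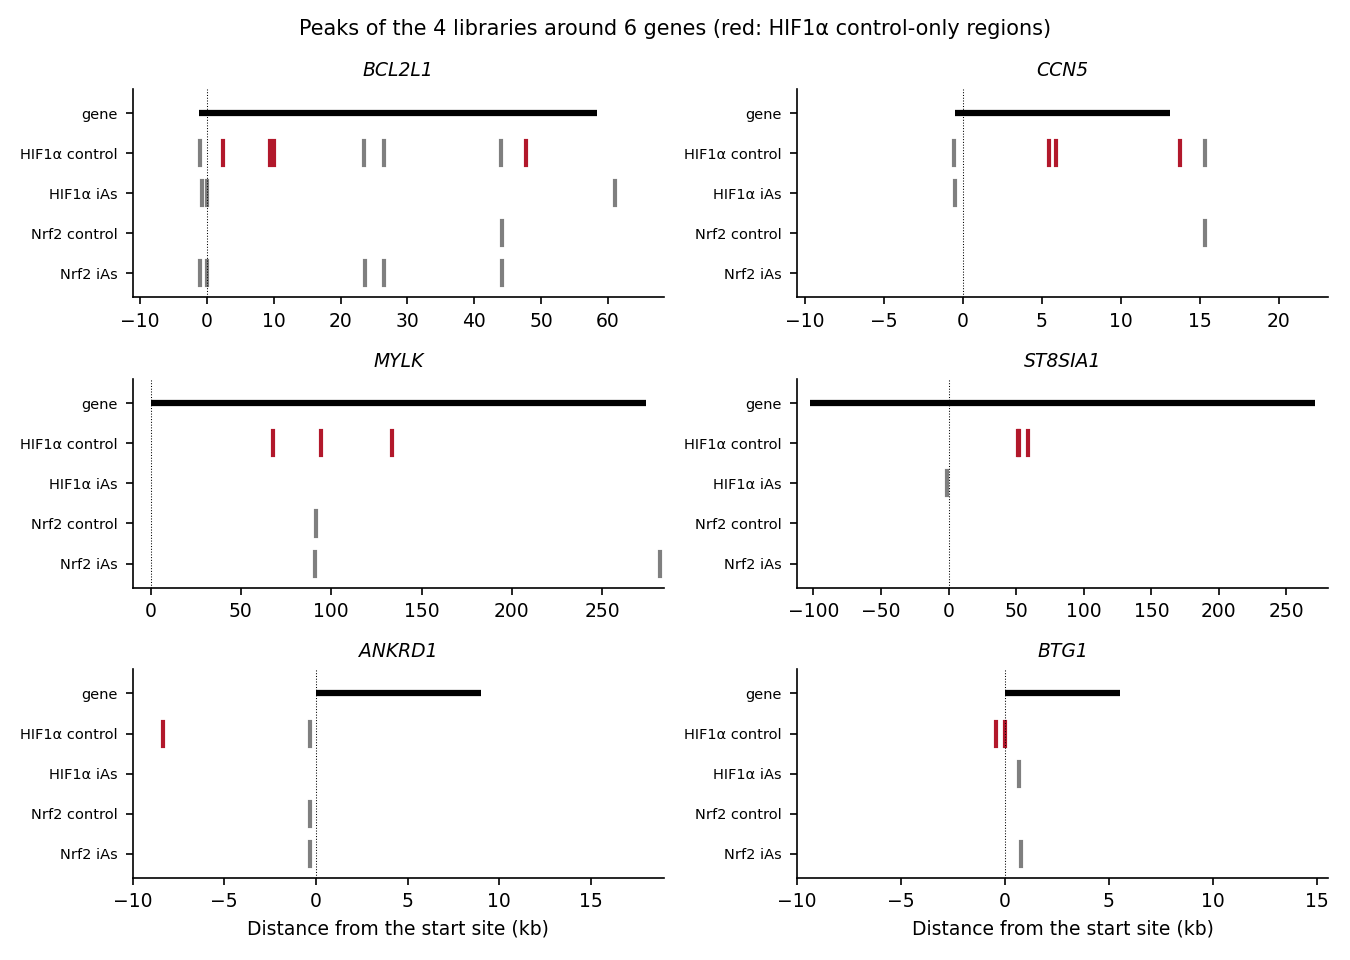
Peaks of the 4 libraries (rows) around 6 genes, by distance in kb from the canonical start site along the direction of transcription (horizontal axis); the black bar is the gene and each vertical mark a peak, red for HIF1α control-only regions. MYLK has 3 control-only regions and no HIF1α peak with iAs, and at BTG1 both control-only regions lie at the start, 185 and 721 bp from the HIF1α peak with iAs.

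The widest members gave a similar spread of places. The first, of 965 bp (chr17:57921093-57922057), lay 2394 bp past the end of MIR21, the gene of the microRNA miR-21, and 327 bp from an Nrf2 peak with iAs. Its nearest protein-coding start was that of TUBD1 at 48.7 kb. It held 3 matches to GCGTG, 1 to GGAATG and none to TGACTCA. The next were 792 bp at AGBL5 (promoter), 748 bp at ERGIC2 (intron, 0.065 kb past its start), 745 bp near BORCS6 and 651 bp in the 5'-UTR of C5orf34. Those at LIPH, PRR14, RPS23, MRPS27, APOBEC3A, SEMA4B and TMBIM6 were 539 to 616 bp wide, and a member near GAS1 tied with the last at 539 bp. The member at ERGIC2 was 259385 bp from the nearest peak of another library, and those at AGBL5 and BORCS6 were 232 and 188 bp from a HIF1α peak with iAs.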

How the data were processed

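The authors aligned reads to hg19 with BWA and called peaks with MACS2 2.1.0, per the submitters' processing notes. The study's methods name MACS or SICER and down-sampling of the tags in a group to the library with the fewest tags. The deposited file lists the peaks of each library as base positions (6008 intervals for HIF1α control, 12826 for HIF1α iAs, 3204 for Nrf2 control and 7743 for Nrf2 iAs), and 21088 regions merged over the 4 libraries. It carries no height, count or score, so depth is unknown, and the intervals given cover the counting of regions only, not variation between cultures. The members and gene lists were chosen with earlier results of these data known.

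Overlaps needed 1 bp and were recounted with bedtools 2.31.1. Starts were changed to 1-based. Region centres were classed with the basic transcripts of protein-coding genes in GENCODE 44 on GRCh37. A centre up to 3 kb upstream of a start counted as promoter, the next in rank were 5'-UTRs, exons, introns and last 3'-UTRs, and the remainder was called distal intergenic. Sequences came from GRCh37. Motifs were searched on both strands within 100 bp of the centre: ACGTG (HRE core), GCGTG (second HRE core), CACGTG (E-box), TACGTG (longer HRE), TTGCGTG (AHR), TGACTCA (AP-1), TGACTCAGC (ARE), TGACNNNGC (wide ARE), TGACGTCA (CRE), GGAATG (TEAD), TGTGGT (RUNX), CGGAAGT (ETS), GGGCGG (SP/KLF), CCAAT (NF-Y), AAGATGGCG (YY1), GCGCATGCG (NRF1), CAGGGGGC (CTCF), TTGCGCAA (C/EBP), TTGCATCA (C/EBP with ATF), GGGANTTCC (NF-κB), TTCCNGGAA (STAT), TGTTTAC (FOX) and ACANNNTGT (glucocorticoid receptor). The E-box and the longer HRE contain the HRE core, the AHR element contains the second core, and both ARE forms can contain the AP-1 element. A match is a description of letters, not of binding.

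Shares carry Wilson 95% intervals and differences Newcombe 95% intervals. Members were compared with 3 sets (HIF1α in both conditions without Nrf2, HIF1α with iAs only, and HIF1α control with Nrf2 iAs) by two-sided Fisher's exact tests, adjusted by Benjamini-Hochberg over all features and sets of a family (6 classes, 23 motifs, or the CpG measure), with a threshold of 0.05. Python 3.11.15, NumPy 2.4.6, SciPy 1.17.1 and pysam 0.24.0 were used, and the steps were tested on simulated data. Named genes were those of the lists with a member within 10 kb, the nearest gene of the 12 widest members, genes with at least 3 members, and AHR and RHEB. The repeat content of the regions was not measured because the genome used is not soft-masked. One gene was left out of the lists and is not reported here. Regions printed as sequence were not drawn from chromosome 8.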

Additional observations from a re-analysis of the deposited data

How the results depend on the processing

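Of 160 values of the 19 main results under the alternatives, 150 kept their direction and their side of the threshold, or a count within 1.5 times. Rebuilding the regions from the library intervals returned the same sets. Keeping autosomes and X only took the iAs-only set from 9191 to 9190 regions and left the others unchanged. Centring on the HIF1α control interval left the comparison with the iAs-only regions unchanged. In these cases the values could hardly move, and they are counted among the 150. The count of 1606 regions became 2929 when a reciprocal overlap of 50% was needed to count as shared, so it depends on the overlap rule. The genes with a region numbered 802 and 869 for the narrower and the wider regions alone and 3085 within 50 kb, by the construction of these settings. The difference in ACGTG from the kept regions was no longer past the threshold for the narrower regions (-3.28 points), within 50 bp of the centre (-1.48) and for promoters, 5'-UTRs and exons only (-2.72). The same held for the difference in GGAATG from the regions with an Nrf2 peak after iAs outside promoters, 5'-UTRs and exons (-5.24), in windows that are not CpG-island-like (-4.09) and in promoters, 5'-UTRs and exons only (-10.6). The cause was not tested. The subsets by island-like windows and by promoters, 5'-UTRs and exons only were chosen after seeing the data.

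The difference in ACGTG from the kept regions was larger, -26.7, over the whole region. Among the other motif differences, 9 that were past the threshold in either setting changed sign. ETS against the regions with an Nrf2 peak after iAs was -0.0818 outside promoters, and against the kept regions 0.852 in promoters, 5'-UTRs and exons. The NRF1 element against the kept regions was 0.0839 in windows that are not island-like. Over the whole region, where the sets differ in width, CCAAT was -10.5, STAT -0.592 and NF-κB -1.42 against the kept regions, ACGTG -4.28 and the wide ARE -4.42 against the iAs-only regions, and the glucocorticoid receptor element -3.85 against the regions with an Nrf2 peak after iAs. Another 60 location and motif differences changed sign while past the threshold in neither setting. A further 77 motif and 2 location values fell below the threshold, and 23 and 1 passed it. No paired analysis was possible because each group has 1 library. The alternatives on repeats were not run, since the genome is not soft-masked. Without peak heights or depth, a missing call cannot be told apart from weak binding.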
